A study of Mus musculus with 3 samples.

Results

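The cells described here are dendritic cells of mouse dorsal skin that carry transcripts of Ccr7, the chemokine receptor that guides dendritic cells out of the skin through lymphatic vessels. A cell barcode was a member if it had at least 500 genes, at most 15% mitochondrial UMIs (unique molecular identifiers, 1 per captured transcript), at least 10 UMIs of the MHC class II genes H2-Ab1, H2-Eb1 and Cd74 together, at least 1 UMI of Ccr7 and at least 4 of Ccr7 and Fscn1 together. It also had 0 UMIs of the T cell gene Cd3e and fewer than 10 of the keratinocyte genes Krt5 and Krt14. This gave 590 members of 45846 cells that passed the gene and mitochondrial limits: 181 of 12638 in Cont, 240 of 16573 in CIA and 169 of 16635 in CIA+VFX. Members were thus selected on measured UMIs of Ccr7, Fscn1, the MHC class II genes, Cd3e and both keratins, whose levels are given only as a description.

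Droplet single-cell RNA sequencing was run on back skin of female C57BL/6 mice aged 9 weeks, all of them depilated with wax. Cont mice received vehicle, CIA mice were a model of chemotherapy-induced alopecia, and CIA+VFX mice were that model given VFX, named in the series text as venlafaxine, a serotonin and noradrenaline reuptake inhibitor. The labels used here give no chemotherapy drug, dose or day of sampling. Each group had 1 library of skin pooled over an unstated number of mice (n = 1 per group), so no test between groups was possible, and every interval below is a 95% interval for counting error alone.

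Dendritic cells sample antigen in the skin and, on maturation, take up a migratory program. They gain Ccr7, the actin-bundling protein fascin (Fscn1), costimulatory ligands and T cell attracting chemokines such as Ccl22, and turn down antigen uptake and new MHC class II synthesis. Skin holds type 1 dendritic cells, which cross-present antigen, type 2 dendritic cells, which prime helper T cells, and epidermal Langerhans cells, and each of these can enter that program.

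The 3 libraries held 14529 to 18987 barcodes and 130557879 to 155210692 UMIs. Members were deep cells, with median UMIs of 10194, 9310.5 and 10314 in Cont, CIA and CIA+VFX against 7167, 5301 and 5754 over all kept cells. Their median mitochondrial share was 0.941%, 0.943% and 1.25%, and 1, 0 and 0 further barcodes met the gate but lay over the mitochondrial limit. Libraries shared 75 to 110 barcodes in pairs, and 0 of these were members in both libraries. A doublet caller marked 23, 20 and 12 members (12.7%, 8.33% and 7.10%), which stayed in. Summed macrophage genes reached 914, 999.7 and 1044 CPM in members (counts per 1000000 UMIs of the same cells), with 90, 118 and 86 members at 5 or more UMIs of that list. Neutrophil genes stayed at 8.98 to 25.7 CPM, with Ly6g at 0 in each library.

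The label of mature dendritic cells held for a minority of the members. Besides Ccr7, the markers of that type were Fscn1, Cacnb3, a calcium channel subunit, and Ccl22. Fscn1 had a UMI in 38 of 181, 47 of 240 and 57 of 169 members (21.0%, 19.6% and 33.7%), against 6.14%, 3.96% and 6.49% of T cells, which lack the program and had median depths of 4891, 4191 and 4393 UMIs. With every cell thinned to 3000 UMIs the shares were 14.6%, 16.2% and 27.8% of members and 1.82%, 2.05% and 2.98% of T cells. Cacnb3 had a UMI in 17.1%, 16.2% and 30.2% of members, and Ccl22 in 47.5%, 36.7% and 46.2%, against 1.35%, 1.38% and 0.649% and 0.520%, 0.184% and 0.216% of T cells. Members with all of Fscn1, Cacnb3 and Ccl22 numbered 25, 34 and 46, while 85, 145 and 83 had none of them. Cd209a, a lectin of type 2 dendritic cells, had a UMI in 68.5%, 65.0% and 53.8% of members, and Il1b, the interleukin-1 beta gene, in 81.2%, 86.7% and 81.7%. In T cells the shares were 1.66%, 1.38% and 1.08% for Cd209a and 4.06%, 4.60% and 4.43% for Il1b. The members are therefore called Ccr7-gated cells, and are given both together and as Fscn1-positive members (at least 1 UMI of Fscn1) and Fscn1-negative members, a division chosen after the data had been seen.

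The values on either side of the gate's edge rest on few cells. With 3 UMIs of Ccr7 and Fscn1 together, 20, 24 and 23 cells lay just outside, and Il1b had a UMI in 90.0%, 95.8% and 91.3% of them. With 4 UMIs, 13, 20 and 9 cells lay just inside, and Il1b had a UMI in 84.6%, 75% and 88.9%. Cacnb3 had a UMI in 0%, 4.17% and 0% of the cells just outside and in 0%, 15% and 11.1% of those just inside. Cd209a had a UMI in 80%, 54.2% and 69.6% of the cells just outside and in 53.8%, 60% and 77.8% of those just inside. The gate also left out 30, 17 and 17 cells that had at least 4 UMIs of Fscn1 but 0 of Ccr7.

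Summed over cells, Fscn1-positive members held a set of genes that the Fscn1-negative members nearly lacked. These genes were ranked on the same cells, so they describe the division and do not test it. Cacnb3 was at 387, 324 and 335 CPM in Fscn1-positive members of Cont, CIA and CIA+VFX, and at 3.29, 0 and 2.65 CPM in Fscn1-negative members. Mreg, a melanoregulin gene of vesicle transport, was at 515, 405 and 542 CPM against 15.1, 7.46 and 15.9. Apol7c, an apolipoprotein L family gene, was at 130, 131 and 200 CPM in Fscn1-positive members and had 0 UMIs in every Fscn1-negative member. The other genes of the set were Slc22a23, Slc4a8, Eno3, Nudt17, Corin, Slit2, Adcy6 and Slco5a1. Each was ranked on its summed UMIs and not on how many cells carried it. At least 2 UMIs of these 11 genes were found in 84.2%, 95.7% and 98.2% of Fscn1-positive members, in 8.39%, 4.66% and 7.14% of Fscn1-negative members and in 4.48%, 3.80% and 4.76% of type 2 dendritic cells. Single deep cells added many of these UMIs. A Cont member of 54143 UMIs held 156 of them, with 1 UMI of Ccr7 and 4 of Fscn1. A CIA+VFX member of 58046 UMIs held 145, with 3 of Ccr7 and 2 of Fscn1. The part of such cells in the ranking of each gene was not tested.

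The 2 strata were of like depth and differed in Ccr7 and in doublet calls. Median UMIs were 10276, 9426 and 10220 in Fscn1-positive members and 10188, 9227 and 10347 in Fscn1-negative members. Median Ccr7 UMIs per cell were 36, 25 and 27 against 14, 13 and 10.5. Called doublets were 18.4%, 14.9% and 14% of Fscn1-positive members against 11.2%, 6.74% and 3.57% of the others. The part of doublets in the division was not tested.

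**Figure D1:**
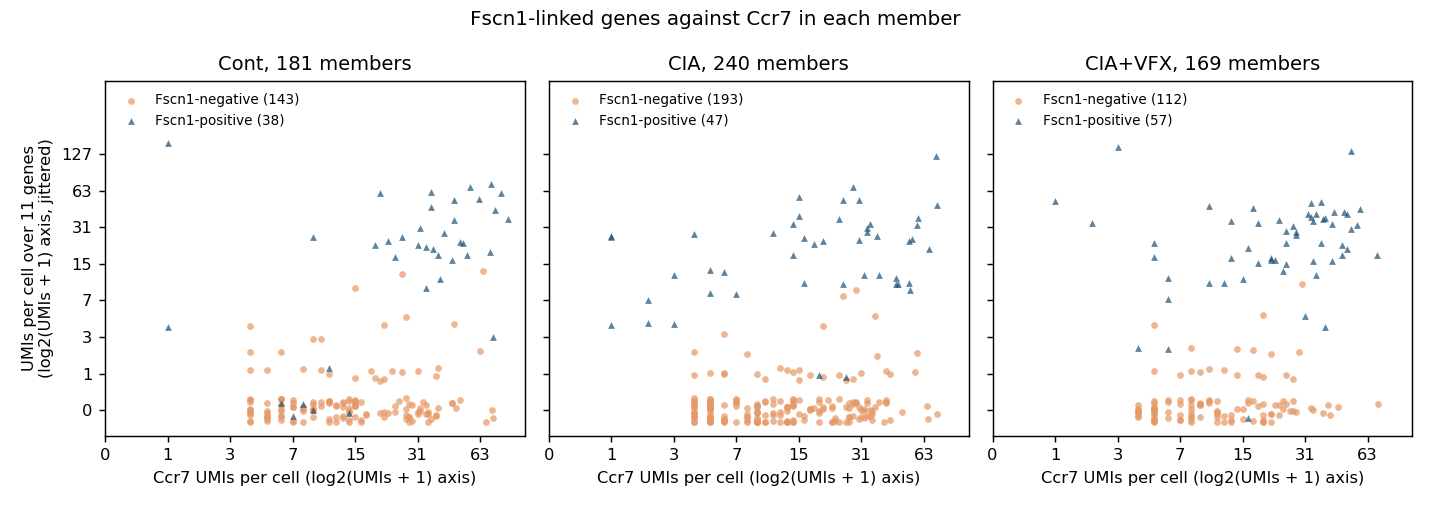
Each point is 1 member, in 1 panel per library: the horizontal axis gives its Ccr7 UMIs and the vertical axis its summed UMIs over the 11 genes that went with Fscn1, both as log2(UMIs + 1), with vertical jitter. Fscn1-positive members (triangles) have medians of 22.5, 24.0 and 23 summed UMIs and Fscn1-negative members (circles) a median of 0 in each library, while Ccr7 reaches 86, 73 and 70 UMIs in the former and 73, 73 and 71 in the latter.

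Genes of myeloid and type 2 cells ran the other way. Lyz2, Itgam and Nlrp3 were ranked on this same division, so they describe it and do not test it. Lyz2, the lysozyme of macrophages and monocyte-derived cells, was at 1651, 1800 and 1610 CPM in Fscn1-negative members and 207, 68.5 and 154 CPM in Fscn1-positive members. Itgam, the CD11b chain, was at 152, 103 and 141 CPM against 20.7, 1.85 and 15.2, and Cd209a at 762, 735 and 856 CPM against 124, 31.5 and 13.7. Nlrp3, the sensor of the inflammasome, was at 110, 70.9 and 99.7 CPM against 12.4, 7.40 and 10.7. Il1b was at 5824, 8393 and 7816 CPM in Fscn1-negative members and at 1212, 1168 and 1775 CPM in the others. H2-Ab1, an MHC class II chain, was lower in Fscn1-positive members, at 2435, 3600 and 3364 CPM against 9208, 11508 and 9884, as was the invariant chain Cd74 at 9818, 13203 and 11626 CPM against 25571, 28361 and 24643. The last pair of genes was part of the gate.

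Beside type 2 dendritic cells (491, 342 and 294 cells with at least 2 UMIs of Cd209a and fewer than 5 of C1qa, C1qb and C1qc, outside the gate), the summed members held more of several genes of the migratory program, most of it in Fscn1-positive members. The genes below were picked as the most different between these cells, so they describe the contrast and do not test it. Il4i1, an amino acid oxidase that restrains T cells, was at 142, 197 and 211 CPM in members and 5.87, 14 and 12.5 CPM in type 2 cells. Ly75, the uptake receptor DEC-205, was at 191, 150 and 289 CPM against 7.13, 8.41 and 13.3, and in Fscn1-negative members alone at 51.9, 29.3 and 97.9 CPM. Serpinb6b, a protease inhibitor, was at 113, 84.8 and 210 CPM against 1.47, 1.05 and 0.804. Il12b, the p40 chain of interleukin-12 and interleukin-23, was at 285, 132 and 68.2 CPM against 0.21, 0 and 0. Type 2 cells had more Ccr2, the receptor of blood-derived cells, at 251, 250 and 327 CPM against 78.3, 73.2 and 103 in members, and more Marchf1, the ligase that turns over surface MHC class II, at 79.5, 66.2 and 67.2 CPM against 20, 19.9 and 15.6. C1qa was higher in members in each library, but fewer than 5 C1q UMIs was a condition for type 2 cells, which makes C1qa no comparison.

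The Fscn1-negative members also differed from type 2 cells outside Ccr7. The genes given were ranked on these same cells, so they describe the difference and do not test it. Ccl22 was at 394, 229 and 153 CPM in Fscn1-negative members and 20.1, 12.6 and 8.45 CPM in type 2 cells. Ccl17, its partner ligand of the receptor CCR4, was at 249, 142 and 177 CPM against 31.7, 13.3 and 15.3. Tbc1d4, a Rab GTPase activator of vesicle traffic, was at 170, 159 and 176 CPM against 18.5, 40.0 and 35.8, and the survival gene Bcl2a1b at 913, 509 and 398 CPM against 249, 129 and 99.3. Hspa1a, a heat shock gene, was lower in Fscn1-negative members: it was at 26.9, 79.9 and 60 CPM against 220, 621 and 434 in type 2 cells. Fos, an immediate early gene that also responds to tissue dissociation, was at 260, 329 and 329 CPM against 590, 798 and 731. Fscn1-negative members were deeper than type 2 cells, whose median UMIs were 9352, 7901.5 and 7902.

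**Figure D2:**
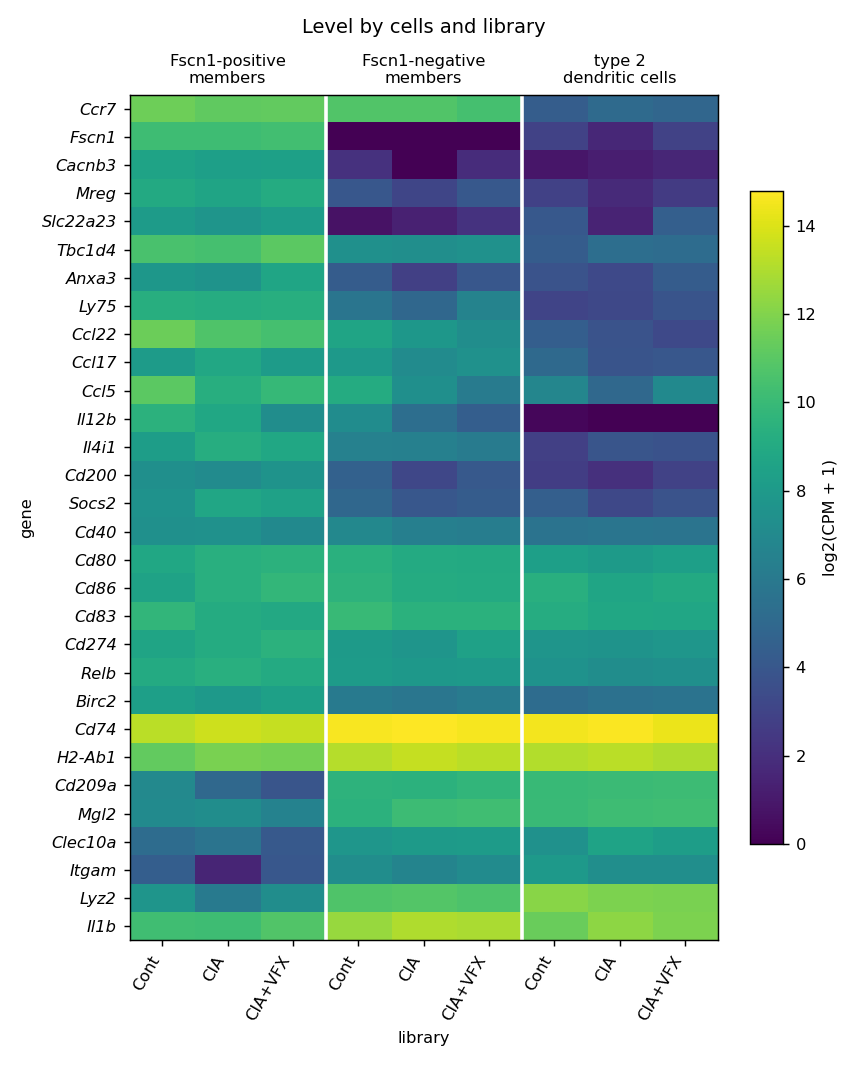
Colour gives log2(CPM + 1) of 30 genes (vertical axis) in Fscn1-positive members, Fscn1-negative members and type 2 dendritic cells of each library (horizontal axis), with yellow high and dark purple 0 or near 0. Cacnb3, Mreg and Ly75 are higher in Fscn1-positive members of every library than in the other 2 kinds of cells and Lyz2 is lower. Cacnb3, Mreg, Slc22a23, Lyz2 and Itgam were ranked on this division, and Ly75 beside type 2 cells. Fscn1, Ccr7, Cd74 and H2-Ab1 were part of the gate, and Cd209a defined the type 2 cells.

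Subset marks were sought in the members with 2 or more UMIs of a subset's genes. Type 2 marks alone were found in 109 of 181, 133 of 240 and 76 of 169 members, and type 1 marks alone in 10, 5 and 12. Langerhans marks alone were found in 6, 4 and 5 members, more than one kind of mark in 26, 51 and 29, and no mark in 30, 47 and 47. Of the members with type 2 marks, 7, 9 and 6 were Fscn1-positive, and of those with no mark 17, 33 and 38 were. Among members with no mark, Fscn1-positive cells were thus 56.7%, 70.2% and 80.8%, against 6.42%, 6.77% and 7.89% of members with type 2 marks. In Cont all 6 members with Langerhans marks were Fscn1-positive, and in CIA and CIA+VFX 1 of 4 and 4 of 5 were.

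Members were 1.43%, 1.45% and 1.02% of all kept cells in Cont, CIA and CIA+VFX. The share in CIA was 1.01 times that in Cont (interval 0.830 to 1.23), and that in CIA+VFX was 0.702 times that in CIA (0.573 to 0.858) and 0.709 times that in Cont (0.572 to 0.880). The denominator decided these ratios. Of cells with a UMI of Ptprc, the pan-leukocyte gene CD45, members were 3.38%, 4.18% and 3.80%, and CIA+VFX stood at 1.12 times Cont (0.900 to 1.41) and 0.911 times CIA (0.739 to 1.12). Of the 4 dendritic classes (members, type 1, type 2 and Langerhans cells) they were 24.0%, 33.9% and 29.6%, with CIA at 1.41 times Cont (1.16 to 1.72). Type 2 cells were 3.88%, 2.06% and 1.77% of kept cells, so the last denominator was itself smaller in CIA.

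The 2 strata did not share the lower count in CIA+VFX. Fscn1-positive members were 0.301%, 0.284% and 0.343% of kept cells, with CIA+VFX at 1.21 times CIA (0.807 to 1.82). Fscn1-negative members were 1.13%, 1.16% and 0.673% of kept cells, with CIA+VFX at 0.578 times CIA (0.454 to 0.734). Within the members, the Fscn1-positive share in CIA+VFX was 1.72 times that in CIA (1.15 to 2.59) and 1.61 times that in Cont (1.05 to 2.49). Of Ptprc-positive cells, Fscn1-positive members were 0.570%, 0.607% and 1.23%, and CIA+VFX stood at 2.02 times CIA (1.28 to 3.25). This ratio counts only members with a Ptprc UMI, which were 28 of 38, 32 of 47 and 52 of 57 Fscn1-positive members. It therefore also holds the difference in Ptprc detection among them. Levels summed over all members therefore mix the 2 strata in different proportions in each library, so a difference over all members can differ from that in either stratum.

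**Figure D3:**
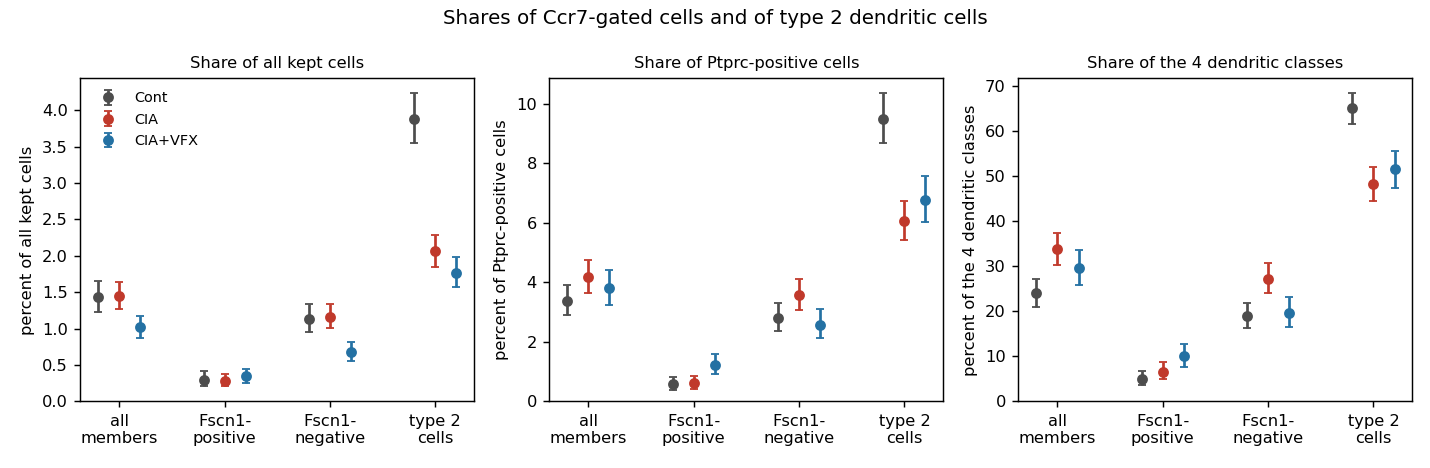
Points give the share of all members, Fscn1-positive members, Fscn1-negative members and type 2 dendritic cells in each library as a percent of all kept cells, of Ptprc-positive cells and of the 4 dendritic classes, with exact 95% binomial intervals as bars. Fscn1-negative members of CIA+VFX lie below those of CIA in all 3 panels, and Fscn1-positive members of CIA+VFX lie highest in all 3. The intervals of Fscn1-positive members overlap between all libraries as a share of kept cells. Of the 4 dendritic classes they overlap between CIA+VFX and CIA.

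Across all genes with at least 50 UMIs in the 2 libraries compared, a gene was counted as higher or lower if its CPM differed at least 2-fold. In the members 443 of 7105 genes (6.24%) were higher and 292 (4.11%) lower in CIA than in Cont. Between CIA+VFX and CIA 127 of 7065 genes (1.80%) were higher and 219 (3.10%) lower, and between CIA+VFX and Cont 330 of 6656 (4.96%) were higher and 332 (4.99%) lower. The counts between CIA+VFX and CIA changed when some members were left out: without called doublets 89 genes were lower, without members holding 5 or more UMIs of fibroblast, keratinocyte or endothelial genes 96 were lower, and without the top member of each gene 69 were higher. The comparisons share libraries and are not independent of each other. In Fscn1-positive members alone the shares higher and lower were 6.72% and 7.98% between CIA and Cont, 3.42% and 6.17% between CIA+VFX and CIA, and 6.45% and 8.32% between CIA+VFX and Cont. In Fscn1-negative members they were 7.24% and 4.47%, 0.641% and 2.32%, and 4.60% and 4.26%.

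Many of the most extreme genes rested on 1 cell. Il22, a cytokine of lymphocytes, had all its UMIs in 1 Cont member (246 CPM against 0 in CIA and CIA+VFX). The keratinocyte gene Tchh had 97.5% of its Cont UMIs in 1 member, the granzyme gene Gzmc 97.8%, and Mgp, a stromal gene, 97.7% of its CIA+VFX UMIs. The 10 most extreme genes in each direction, among those with at least 50 CPM in the higher library and at least 0.5 times the level over all its kept cells, were therefore sorted by spread, and a gene was called broad if at least 10% of the cells of the higher library carried it and no cell gave 25% or more of its UMIs. For CIA against Cont the broad genes were Pgf, Clec4n and Mmp12 among 10 higher and Retnla, Aldh1a2 and Upb1 among 10 lower. Between CIA+VFX and CIA they were Dscam and Slc4a8 among 10 higher and 0 of 10 lower. Between CIA+VFX and Cont they were Syn3, Pgf, Mmp12, Edil3 and Fabp5 among 10 higher and Dthd1, Aldh1a2, Retnla and Oasl1 among 10 lower. Slc4a8 is of the set that went with Fscn1: Fscn1-positive members held 150 of its 150 UMIs in CIA+VFX and 57 of 58 in CIA. Its log2 ratio between CIA+VFX and CIA was 1.80 over all members and 1.12 in Fscn1-positive members. That of Dscam was 1.87 over all members and 0.589 in Fscn1-negative members.

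**Figure D4:**
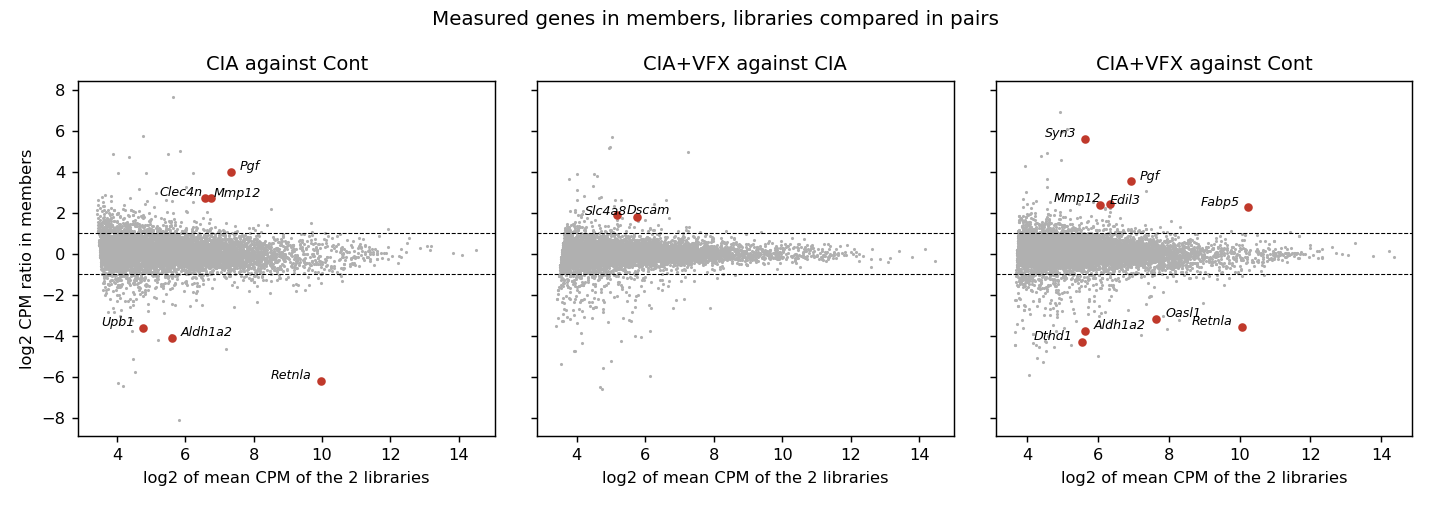
Each point is a gene with at least 50 UMIs in the members of the 2 libraries compared and at least 1 UMI in each: the horizontal axis is log2 of its mean CPM and the vertical axis the log2 ratio of its CPM, with dashed lines at 2-fold. The named broad genes are red, and Retnla and Aldh1a2 lie far below the line in both panels against Cont.

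Aldh1a2 was lower in the members of CIA and CIA+VFX than in those of Cont. It makes retinoic acid, the signal by which migratory dendritic cells steer lymphocytes. Aldh1a2 was at 279, 16.7 and 4.57 CPM in Fscn1-positive members of Cont, CIA and CIA+VFX, from 16 of 38, 4 of 47 and 2 of 57 cells. In Fscn1-negative members it was at 32.2, 2.13 and 7.94 CPM, from 23, 4 and 8 cells. The log2 ratio in Fscn1-positive members was -4.07 (-5.23 to -3.10) for CIA against Cont and -5.93 (-8.23 to -4.36) for CIA+VFX against Cont. Both strata of Cont lay above those of CIA and CIA+VFX, and so did type 2 cells, at 20.8, 3.51 and 3.22 CPM. Timd4, a phosphatidylserine receptor, was at 230, 57.4 and 3.05 CPM in Fscn1-positive members and 315, 45.8 and 109 CPM in Fscn1-negative members, with 61.3% of the CIA value in the former from 1 cell.

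Retnla, a resistin-like gene of alternatively activated macrophages, was at 2533, 30.9 and 258 CPM in Fscn1-negative members and at 161, 13 and 9.14 CPM in Fscn1-positive members. Its UMIs were found in 92 of 181, 17 of 240 and 12 of 169 members, and in 28.6%, 4.97% and 3.78% of T cells. Macrophages held 19464, 3211 and 2703 CPM of Retnla. Thinned to 3000 UMIs, 29.8%, 2.13% and 3.55% of members and 16.4%, 3.03% and 2.61% of T cells had a Retnla UMI, so the shares in CIA and CIA+VFX members lay within 1 percentage point of those in T cells. The CIA+VFX value rests on 1 cell with 59.9% of its UMIs. The part of free macrophage RNA in the Cont level was not tested. Upb1, a pyrimidine breakdown enzyme, was at 50.4, 4.14 and 9.5 CPM in members, from 54, 7 and 14 cells, with no cell over 4% of the Cont UMIs.

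Fscn1-negative members of CIA and CIA+VFX held more Pgf, Clec4n, Mmp12 and Il1r2 than those of Cont. Pgf, placental growth factor, was at 25.6, 388 and 305 CPM in Fscn1-negative members, from 14 of 143, 86 of 193 and 37 of 112 cells. Clec4n, the fungal lectin Dectin-2, was at 37.5, 233 and 150 CPM, and Mmp12, macrophage elastase, at 33.5, 206 and 167 CPM. Il1r2, the decoy receptor that binds interleukin-1 without signalling, was at 160, 725 and 564 CPM, from 73, 153 and 86 cells. Its log2 ratio was 2.18 (1.99 to 2.39) between CIA and Cont, and -0.36 (-0.50 to -0.23) between CIA+VFX and CIA. Type 2 cells showed the same order for Il1r2, at 98.3, 411 and 262 CPM. In Fscn1-positive members Pgf, Clec4n and Mmp12 had 0 UMIs in Cont, were at 11.1, 29.6 and 22.2 CPM in CIA, the last from 1 cell, and were at 86.8, 107 and 82.3 CPM in CIA+VFX.

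In Fscn1-positive members Fabp5, Ciita and Syn3 were higher in CIA and CIA+VFX than in Cont. Fabp5, a fatty acid carrier, was at 1078, 4259 and 4911 CPM, from 34 of 38, 46 of 47 and 56 of 57 cells, with a log2 ratio of 1.98 (1.84 to 2.12) between CIA and Cont, and 0.20 (0.13 to 0.28) between CIA+VFX and CIA. In Fscn1-negative members Fabp5 was at 211, 326 and 329 CPM, and 32.6%, 37.7% and 49.0% of T cells had a Fabp5 UMI. Ciita, the master regulator of MHC class II transcription, was at 4.14, 157 and 104 CPM in Fscn1-positive members, from 2, 22 and 27 cells, and at 30.9, 88.5 and 78.5 CPM in the Fscn1-negative members. Its log2 ratio for CIA against Cont was 5.25 (3.35 to 8.32) in the former, against 2 UMIs in Cont. Of the Ciita UMIs in Fscn1-positive members, 1 cell gave 31.8% in CIA and 1 cell 16.2% in CIA+VFX. Syn3, a synapsin gene whose locus also holds Timp3, was at 8.27, 135 and 265 CPM in Fscn1-positive members, from 2, 18 and 32 cells, and at 0, 0.533 and 0 CPM in the others.

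Htr7 encodes a serotonin receptor and was the gene of the monoamine list that differed between the members of CIA and Cont. It was at 29, 315 and 254 CPM in Fscn1-positive members, from 8 of 38, 31 of 47 and 38 of 57 cells. In Fscn1-negative members it was at 109, 154 and 223 CPM, from 48, 89 and 61 cells. T cells had a Htr7 UMI in 0%, 0.0921% and 0.541% of cells. In Fscn1-positive members the log2 ratio was 3.44 (2.66 to 4.34) between CIA and Cont, and -0.31 (-0.62 to 0.01) between CIA+VFX and CIA. In Fscn1-negative members it was 0.49 (0.21 to 0.78) and 0.54 (0.29 to 0.79). Type 2 cells stood at 59.1, 109 and 121 CPM and type 1 dendritic cells at 358, 401 and 469 CPM, so the Cont level was the lowest in these classes too. Of the 3 genes of this list measured in the members, 1 was higher in CIA than in Cont, against 6.24% of all measured genes.

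**Figure D5:**
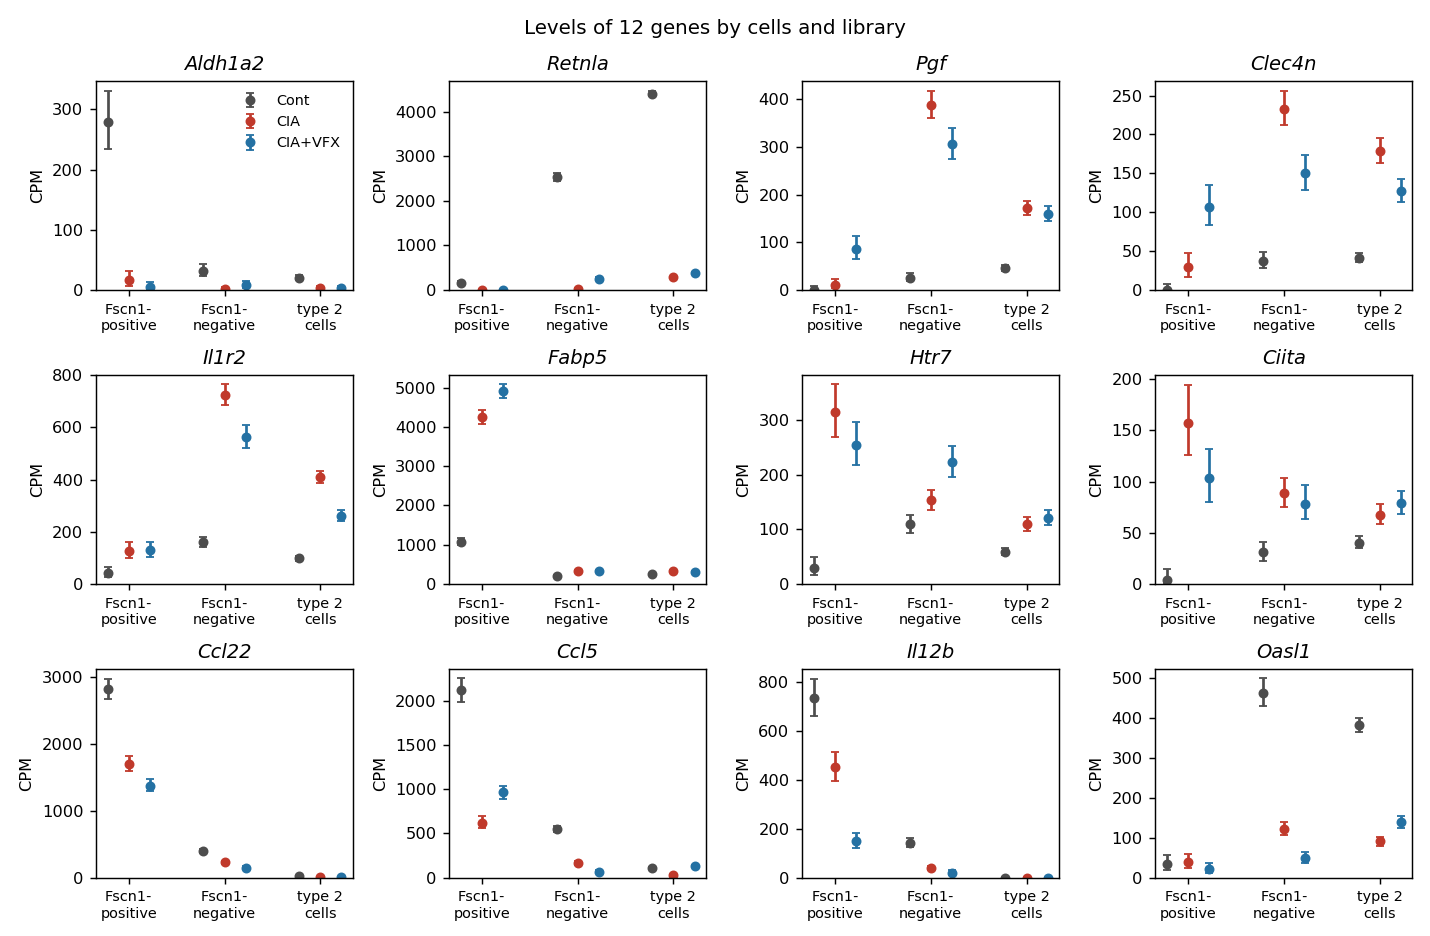
Points give the CPM of 12 genes in Fscn1-positive members, Fscn1-negative members and type 2 dendritic cells of each library, each panel on its own linear axis from 0, with exact Poisson 95% intervals as bars. Aldh1a2 and Ccl22 are highest in Cont in all 3 kinds of cells, and Il1r2, Htr7 and Ciita lowest in Cont, while Oasl1 differs between libraries in Fscn1-negative members and type 2 cells.

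Chemokines differed between CIA and Cont in both directions, with counts that differed by stratum, which was not tested. In Fscn1-positive members 4 of 10 measured were higher in CIA than in Cont (Ccl4, Cxcl10, Cxcl1 and Cxcl2) and 3 lower (Ccl6, Ccl5 and Ccl9), with a median log2 ratio of 0.30, and the Ccl4 value came 92.3% from 1 cell. In Fscn1-negative members 0 of 13 were higher and 6 lower, with a median of -0.81. Over all measured genes the shares higher and lower were 6.72% and 7.98% in Fscn1-positive members and 7.24% and 4.47% in Fscn1-negative members. Of 14 chemokines measured over all members, 6 were lower in CIA than in Cont (Xcl1, Ccl5, Ccl3, Ccl6, Ccl9 and Cxcl9) and 1 higher (Cxcl10). Their median log2 ratio was -0.76 against 0.07 over all measured genes. Between CIA+VFX and CIA 3 of 12 were lower and 0 higher (median -0.02), and for CIA+VFX against Cont 6 of 13 were lower (median -0.96). Ccl22, which draws CCR4-bearing regulatory and helper T cells, was at 2824, 1707 and 1379 CPM in Fscn1-positive members, below 2-fold for CIA against Cont and 2.05-fold lower for CIA+VFX against Cont. Ccl5, a chemoattractant of effector T cells, was at 2116, 622 and 963 CPM in Fscn1-positive members and at 551, 165 and 69.7 CPM in Fscn1-negative members. T cells had a Ccl5 UMI in 20.9%, 5.80% and 8.54% of cells. Ccl6 and Ccl9, myeloid chemokines, were at 759, 329 and 400 CPM and 863, 390 and 452 CPM in Fscn1-negative members.

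Of 8 cytokines measured, 2 were lower in CIA than in Cont, Il12b and Il18, and 0 higher, against 4.11% and 6.24% of all measured genes. In Fscn1-positive members 1 of 5 (Il6) was higher and 0 lower, and in Fscn1-negative members 3 of 6 were lower (Il12b, Il6 and Il18). Il12b was at 732, 452 and 151 CPM in Fscn1-positive members, from 18 of 38, 16 of 47 and 10 of 57 cells. Its log2 ratio there was -0.70 (-0.94 to -0.46) between CIA and Cont, and -1.58 (-1.93 to -1.24) between CIA+VFX and CIA. In Fscn1-negative members 7, 3 and 1 cells carried it. Over all members its log2 ratio between CIA and Cont was -0.636 as a mean over cells and -0.771 without called doublets, both below 2-fold. With at least 8 UMIs of Ccr7 and Fscn1 it was -0.624, while under either other scaling it stayed within its counting interval. Of the 572 Cont UMIs of Il12b, 284 lay in 10 members with type 1 marks alone. Il1b was at 4713, 6778 and 5601 CPM in the members and stayed within 2-fold in all 3 comparisons. Among 23 cytokine receptors, Il1r2 was higher in CIA than in Cont, and Il2ra and Il15ra lower. Il2ra, the high-affinity chain of the interleukin-2 receptor, was at 166, 59.2 and 64.0 CPM in Fscn1-positive members and at 113, 37.3 and 48.5 CPM in the others. Flt3, the receptor that sustains dendritic cells, was at 163, 193 and 334 CPM in Fscn1-positive members and at 44.7, 46.9 and 73.2 CPM in Fscn1-negative members.

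Costimulatory ligands gave different counts in the 2 strata, a difference that was not tested. In Fscn1-positive members 2 of 8 measured (Tnfsf9 and Tnfsf4) were higher in CIA than in Cont and 0 lower, 1 of 11 (Tnfsf9) was lower in CIA+VFX than in CIA, and 3 of 9 (Tnfsf4, Cd86 and Cd48) were higher in CIA+VFX than in Cont, with a median log2 ratio of 0.66. In Fscn1-negative members 0 of 10 differed 2-fold in any comparison, and over all members only Tnfsf4 did, between CIA+VFX and Cont. Over all measured genes in Fscn1-positive members, 6.72% were higher and 7.98% lower for CIA against Cont, and 3.42% and 6.17% for CIA+VFX against CIA. For CIA+VFX against Cont these shares were 6.45% and 8.32%. In Fscn1-negative members they were 7.24% and 4.47%, 0.641% and 2.32%, and 4.60% and 4.26%. Counts of so few genes are not read as a trait of the list. Cd80 was at 628, 551 and 581 CPM in the members and Cd86 at 651, 569 and 659 CPM, both ligands of CD28. Cd86 had opposite orders in the strata, at 366, 655 and 885 CPM in Fscn1-positive members and 741, 544 and 528 CPM in Fscn1-negative members. Tnfsf4, the ligand OX40L, was at 47.6, 161 and 260 CPM in Fscn1-positive members, from 7, 21 and 17 cells, and at 34.2, 27.2 and 27.3 CPM in the others. Of 16 genes of coinhibition and restraint, 1 (Aldh1a2) was lower in CIA than in Cont and 0 were higher, and in Fscn1-positive members 2 of 12 were higher (Pdcd1lg2 and Socs2) and 1 lower (Aldh1a2). Cd274, the ligand PD-L1, was at 391, 553 and 724 CPM in Fscn1-positive members, from 29 of 38, 42 of 47 and 56 of 57 cells. Socs2, a brake on cytokine signalling, was at 186, 428 and 346 CPM in Fscn1-positive members and 29.6, 14.9 and 18.5 CPM in Fscn1-negative members.

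The NF-kappaB, cytoskeleton, presentation and survival lists each held 1 gene past 2-fold between CIA and Cont in the members. Over all measured genes 6.24% were higher and 4.11% lower, so these counts are not read as a trait of the lists. Those shares were 1.80% and 3.10% for CIA+VFX against CIA, and 6.72% and 7.98% for CIA against Cont in Fscn1-positive members. Of 20 NF-kappaB genes measured, 1 was lower in CIA than in Cont, Tnfaip3, the ubiquitin-editing inhibitor of the pathway, at 461, 191 and 224 CPM. Relb, the subunit tied to dendritic cell maturation, was at 334, 329 and 348 CPM. Of 20 cytoskeleton and migration genes 1 (Mmp14) was higher in CIA than in Cont, and 2 (Anxa3 and Tbc1d4) were higher in CIA+VFX than in CIA. Within Fscn1-positive members Tbc1d4 was at 1504, 1390 and 2173 CPM, under 2-fold, and Anxa3, an annexin, at 230, 191 and 408 CPM, 2.14-fold apart for CIA+VFX against CIA. Of 15 MHC class II genes 1 (Ciita) was higher in CIA than in Cont, of 14 MHC class I genes 1 (Psmb9, an immunoproteasome subunit), and of 13 survival and death genes 1 (Bcl2l14) was lower. In Fscn1-positive members 2 of 12 MHC class II genes were higher in CIA than in Cont (Ciita and H2-DMb2), and of 11 survival genes 2 were higher (Bcl2 and Bcl2l1) and 1 lower (Bcl2l14).

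Several interferon-induced genes were lower in CIA+VFX than in CIA. Of 19 measured, 8 were lower in CIA+VFX and 1 higher (Gbp2), against 3.10% and 1.80% of all measured genes, with a median log2 ratio of -0.71. For CIA against Cont, 4 of 18 were higher and 2 lower (median 0.11), with 3 of 6 higher and 0 lower in Fscn1-positive members and 1 of 16 higher and 4 lower in Fscn1-negative members. Isg15, a ubiquitin-like antiviral protein, was at 539, 403 and 166 CPM in Fscn1-negative members and 53.8, 313 and 168 CPM in Fscn1-positive members. Oasl1, which restrains Irf7 translation, was at 464, 122 and 49.4 CPM in Fscn1-negative members, from 59, 31 and 13 cells, and at 35.2, 38.9 and 22.9 CPM in the others. Members with 5 or more UMIs of this list were 100, 108 and 77 (55.2%, 45.0% and 45.6%), so this share was alike in CIA and CIA+VFX. The top 5 members gave 20.8%, 25.5% and 26.4% of the list's UMIs. In Fscn1-positive members of CIA the top 5 cells gave 63.2%.

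Several cell cycle genes were higher in CIA than in Cont. Of 9 S and G2/M genes measured, 6 were higher in CIA than in Cont (Birc5, Cdk1, Top2a, Ccnb2, Ube2c and Tyms) and 0 lower, with a median log2 ratio of 1.24. In Fscn1-negative members 6 of 9 were higher, and in Fscn1-positive members 2 were measured and 0 differed 2-fold. Top2a, the DNA topoisomerase of dividing cells, was at 61.8, 201 and 159 CPM in Fscn1-negative members, from 25, 50 and 35 cells, and at 8.27, 16.7 and 33.5 CPM in Fscn1-positive members, from 2, 7 and 9 cells. Members with 5 or more UMIs of the list were 29, 57 and 37 (16.0%, 23.8% and 21.9%). Thinned to 3000 UMIs per member, the log2 ratio of Top2a for CIA against Cont was 0.835, below 2-fold. Of 16 p53 targets 1 (Gdf15) was higher and 2 (Plk3 and Pmaip1) lower in CIA than in Cont, against 6.24% and 4.11% of all measured genes. The log2 ratio of Pmaip1 was -0.947 with members thinned, -0.551 in Fscn1-positive members and -1.54 in Fscn1-negative members. Of 16 immediate early and dissociation genes 0 were higher or lower over all members. In Fscn1-positive members 4 of these 16 were lower in CIA than in Cont (Egr1, Dusp1, Atf3 and Fos) and 1 higher (Nr4a1). In Fscn1-negative members 2 of 16 were higher (Hspa1a and Hspa1b) and 0 lower. Over all measured genes the shares higher and lower were 6.72% and 7.98% in Fscn1-positive members and 7.24% and 4.47% in Fscn1-negative members.

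Of 7 Langerhans genes measured in Fscn1-negative members, 3 were higher in CIA than in Cont (Cd207, Epcam and Mfge8) and 0 lower. Over all measured genes of that stratum 7.24% were higher and 4.47% lower. Members of both strata with Langerhans marks alone numbered 6, 4 and 5, of which 6, 1 and 4 were Fscn1-positive. Cd207, the Langerhans lectin langerin, was at 0, 101 and 84.7 CPM in Fscn1-negative members, from 0 of 143, 19 of 193 and 12 of 112 cells. In Fscn1-positive members Cd207 was at 82.7, 3.7 and 42.7 CPM, from 7, 1 and 3 cells. Epcam, an adhesion gene of Langerhans cells and epithelium, was at 4.60, 99.7 and 69.7 CPM in Fscn1-negative members, from 7, 44 and 26 cells, but 20.1%, 12.6% and 17.8% of T cells also had an Epcam UMI. Fibroblast genes summed to 1769, 656 and 210 CPM in the members, with 94.8%, 92.4% and 81.1% of these UMIs in 5 cells of each library. Without members with 5 or more UMIs of the fibroblast, keratinocyte or endothelial lists, 96 genes were lower in CIA+VFX than in CIA, in place of 219.

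After thinning to 3000 UMIs, the 12 genes with the highest variance-to-mean ratio over single members were led by the nuclear RNA Malat1, at 29.2, 33.8 and 32.0, and held Cst3, Fth1, Lyz2, Actb, the gate gene Cd74 and 6 cytokine, chemokine or growth factor genes. Among the latter were Cxcl2, a neutrophil chemoattractant, at 40.7, 27.8 and 25.7, Ccl5 at 34.3, 18.9 and 26.4, Ccl22 at 21.3, 27.5 and 10.8, Il1b at 12.3, 16.8 and 16.2, and Areg, an epithelial growth factor, at 11.9, 11.8 and 18.7. Cxcl2 had a UMI in 18.5%, 24.7% and 24.3% of thinned members. Actb, the actin of the cytoskeleton, was at 10.4, 10.8 and 11.4 and had a UMI in every thinned member, so its spread was in level alone.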

How the data were processed

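Single-cell counts of 3 libraries of mouse dorsal skin, 1 per group, were used as deposited. The deposited counts are whole UMI counts per gene and cell, for which the file headers name Cell Ranger 8.0.1 as the authors' tool, with build GRCm39 named in the submitters' processing notes. The filters behind the deposited cell list are not given in the sources used here.

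Members followed the gate given in the report. The members and gene lists were chosen with earlier results of these data known. UMIs were summed over cells per library and divided by the summed total (CPM). With n = 1 per group there was no test. Intervals are exact Poisson for levels, exact binomial (Clopper-Pearson) for shares and conditional binomial for ratios, at 95%, and cover counting error only. Genes needed 50 UMIs in the 2 libraries compared and counted as higher or lower at 2-fold. Genes named were the 10 most extreme per direction and comparison among those with at least 50 CPM in the higher library and at least 0.5 times the level over all its kept cells, without mitochondrial, ribosomal, haemoglobin, Gm and Rik genes, the members of the lists, the 12 most different beside type 2 cells and the 12 with the highest variance-to-mean ratio. Genes were also named from the 12 most different per direction between the strata and between Fscn1-negative members and type 2 cells. Thinning drew 3000 UMIs per cell and left out shallower cells. Doublets were called from 2 simulated doublets per cell and 30 neighbours, and were kept.

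Alternatives were other scalings, count minimums, fold limits, denominators, stricter cell filters, thinning, and leaving out doublets, members with genes of other cells or the top cell of each gene. The scripts were tested on simulated data. Python 3.11.15, numpy 2.4.6, scipy 1.17.1, pandas 2.3.3, scikit-learn 1.9.0, R 4.3.3 and edgeR 4.0.16 (for scaling factors) were used.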

Additional observations from a re-analysis of the deposited data

Results flagged for a closer look

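Some genes differed at least 2-fold in opposite directions in Fscn1-positive and Fscn1-negative members of the same pair of libraries. These differences were not tested, since each group had 1 library. For CIA against Cont, the log2 ratio of the chemokine Ccl4 was 7.13 in Fscn1-positive and -1.32 in Fscn1-negative members, with the former from 3 cells of CIA, 1 of which gave 92.3% of the UMIs, and 1 cell of Cont. The cytokine Il6 was at 4.34 and -1.56, the antiviral gene Rsad2 at 4.47 and -1.25, and the endothelial and leukocyte adhesion gene Pecam1 at 2.5 and -1.10. The Fscn1-positive values rest on few cells. In CIA and Cont, 10 and 3 of these cells carried Il6, 7 and 4 Rsad2, and 4 and 6 Pecam1.

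For CIA+VFX against CIA, the collagen genes Col1a1 and Col1a2 were at 2.18 and -3.62 and at 1.75 and -4.49. Dcn, a fibroblast proteoglycan, was at 4.99 and -4.68. Fibroblast genes in the members came mostly from 5 cells per library, as given with the other cell types. The immediate early gene Egr1 was at 1.54 and -1.68.

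For CIA+VFX against Cont, the heat shock gene Hspa1a was at -1.11 in Fscn1-positive and 1.15 in Fscn1-negative members. Insig1, a brake on sterol synthesis, was at -1.28 and 1.27, and Isg15 at 1.64 and -1.70, with 16 Fscn1-positive cells of CIA+VFX and 9 of Cont carrying it.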

How the results depend on the processing

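No paired analysis was possible because each group had 1 library. The share ratios moved with the denominator. Of Ptprc-positive cells they were 1.23 for CIA to Cont, 0.911 for CIA+VFX to CIA and 1.12 for CIA+VFX to Cont. Of the 4 dendritic classes they were 1.41, 0.875 and 1.24, and for Fscn1-positive members alone 1.21 for CIA+VFX to CIA and 1.14 for CIA+VFX to Cont. Counts of genes are given as higher and lower, for CIA against Cont, CIA+VFX against CIA and CIA+VFX against Cont in turn. Thinned to 3000 UMIs they were 197 and 135, 45 and 55, and 124 and 93. At a minimum of 20 UMIs they were 912 and 554, 338 and 506, and 752 and 617, and at 200 UMIs 104 and 101, 26 and 44, and 73 and 96. At 1.5-fold they were 1314 and 840, 503 and 539, and 1074 and 760, and at 3-fold 113 and 90, 38 and 105, and 80 and 132.

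Between CIA+VFX and CIA, 89 genes were lower without called doublets, 69 higher without the top member of each gene, and 96 lower without members holding fibroblast, keratinocyte or endothelial genes. The last pair, and the 2 strata taken alone, were alternatives chosen after seeing the data. Leaving out members with those genes left 187 lower for CIA+VFX against Cont. Among Fscn1-positive members 230 genes were higher in CIA than in Cont, and among Fscn1-negative members 37 were higher and 134 lower in CIA+VFX than in CIA. With at least 8 UMIs of Ccr7 and Fscn1, the log2 ratio of Birc5 for CIA+VFX against Cont changed sign to -0.0197.

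In Fscn1-positive members alone, these log2 ratios had the opposite sign to that over all members. For CIA against Cont they were -0.745 for Epcam, 0.144 for Oasl1, 1.01 for Dthd1, -0.0291 for Edil3, 2.01 for Cd36, 0.255 for Ccl3 and -2.48 for Csf1r. Between CIA+VFX and CIA the value for Retnla was -0.503. For CIA+VFX against Cont they were 1.64 for Isg15, 0.729 for Rsad2, 1.14 for Cd36 and -1.10 for Cd209d. In Fscn1-negative members alone they were -0.321 for Tnfsf4 and -0.675 for Socs2, CIA+VFX against Cont. The cause of these changes was not tested. The number of cells limits the Fscn1-positive members, with 38 to 57 per library. Of 81 log2 ratios past 2-fold for the list and named genes, 81 stayed within their counting interval under either other scaling, 76 without the top member of each gene and 63 with members thinned.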
